A study of Mus musculus with 48 samples.

Results

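The comparison described here is between AML12 cells that lacked Bmal1 and wild-type AML12 cells at 48 h, the latest time of a course that followed a synchronising pulse of dexamethasone. Its members are the 4 KO libraries and 4 WT libraries whose titles carry the number 48, which was read as hours, or 8 of the 48 libraries of the series. AML12 is an immortalised line of mouse hepatocytes. RNA was profiled in bulk with Smart-seq3, a protocol for full-length cDNA from small inputs. The WT group is labelled wild-type (control) and the other group Bmal1-KO. Cells of both genotypes were grown in serum-containing medium that itself held dexamethasone, and both received the 1-h dexamethasone pulse before collection, so no group without the glucocorticoid enters the comparison. How Bmal1 was removed, and whether the KO cells are a single clone, is not given in the sources used here. The labels do not state whether the 4 libraries of a group are separate cultures, so a p-value here speaks of the spread among libraries, which could be technical.

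BMAL1 is a transcription factor that pairs with CLOCK (or NPAS2) on E-box motifs and drives the transcription of Per, Cry, Rev-erb and other clock genes. PER and CRY proteins feed back to inhibit the pair, and REV-ERB proteins repress Bmal1 itself, which closes a loop of about a day. Loss of Bmal1 stops this loop in mammalian cells. Direct targets such as Dbp or Rev-erb alpha are known to be low without BMAL1, while genes under repression by REV-ERB or by CRY can be high. In liver the clock adds daily rhythm to bile acid, lipid, glucose and xenobiotic metabolism. Glucocorticoids reset the phase of cultured cells, and after such a pulse the cells of a dish drift apart over the following days.

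The count table lists 32377 features and does not pair them with gene names or identifiers. A feature is therefore known only by its row, counted from 1 after the header, and Bmal1, the other clock genes, hepatocyte markers and markers of other cell types could not be looked up. The labels of the KO libraries were thus not checked against Bmal1. In bulk RNA a feature can be lower because fewer cells express it or because each cell holds less of it, and these cannot be told apart. The WT libraries at 48 h carry library number 17 and the KO libraries number 19, so a difference between these numbers and one between the genotypes cannot be told apart either.

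Depth differed between the 8 libraries. WT libraries held 417825, 654003, 629881 and 507723 counts, and KO libraries held 505538, 384494, 87163 and 301145, in order of replicate number. KO replicate 3 was the shallowest of the 8, and 1 count in it stood for 12.9 CPM (counts scaled to library size with TMM factors), against 1.54 to 3.33 CPM in the others. Total counts were 552358 ± 110201 (SD, n = 4) in WT and 319585 ± 176212 (SD, n = 4) in KO, an exact permutation p of 0.0571, or 0.0857 adjusted over 3 library measures. The KO libraries thus ran shallower, with ranges that overlapped.

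At equal depth each KO library held fewer different features than each WT library, a difference that did not pass after adjustment. In 87163 counts drawn from each library, 9865, 9882, 10068 and 9933 features were expected in the WT libraries. The KO libraries gave 9631, 9641, 9380 and 9723. Every KO library lay below every WT library, with means of 9594 ± 148 and 9937 ± 92.2 (SD, n = 4) and a difference of -343. The exact two-sided permutation p was 0.0286, the smallest that 4 against 4 libraries allow, and 0.0857 adjusted over the 3 measures. A single measure at this smallest p cannot pass 0.05 after the adjustment, so the lack of a call here decides nothing. The 100 most abundant features took 20.8% ± 1.05 of the counts in WT and 22.8% ± 2.65 in KO (SD, n = 4, exact permutation p = 0.2). KO replicate 3 had the highest such share, at 26.6%, and without it the difference was 0.72 percentage points in place of 1.99.

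**Figure D1:**
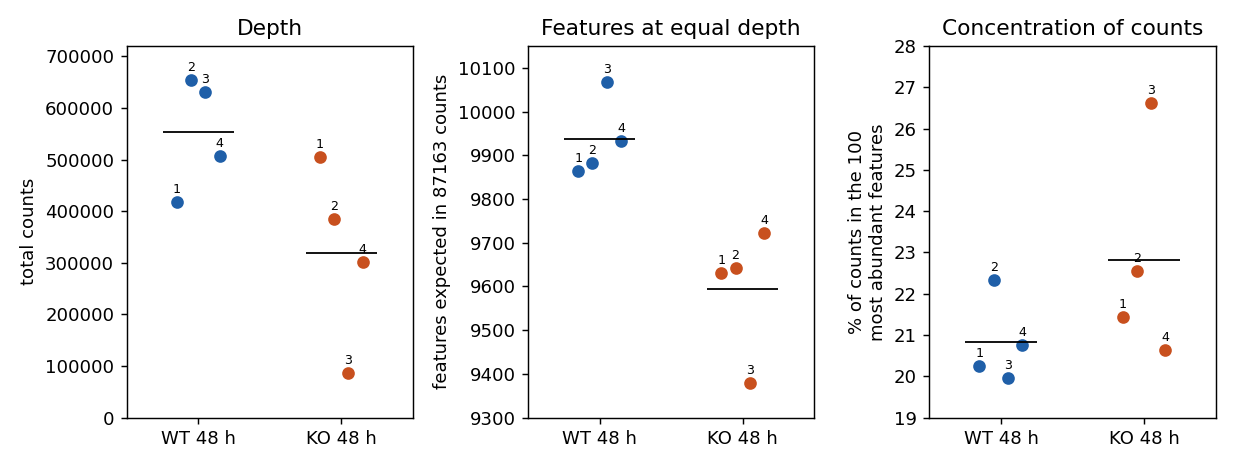
Each point is 1 of the 8 libraries at 48 h, numbered by replicate, with the group mean as a line; the panels show total counts, features expected in 87163 counts and the percent of counts in the 100 most abundant features. KO replicate 3 stands lowest in the first 2 panels and highest in the last, and all 4 KO libraries lie below all 4 WT libraries in the middle panel.

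With KO replicate 3 set aside, libraries of one genotype resembled each other more than they resembled the other genotype. Across 7667 features with a mean of at least 20 CPM, log2 values correlated at 0.93 to 0.95 within WT, at 0.92 to 0.94 among KO replicates 1, 2 and 4, and at 0.86 to 0.89 between these KO libraries and WT. KO replicate 3 correlated at 0.69 to 0.73 with the other KO libraries. When all 8 libraries were thinned to 87163 counts, a step added after the data were seen, KO replicate 3 correlated at 0.60 to 0.62 with the other KO libraries and at 0.54 to 0.57 with WT. The other KO libraries then correlated at 0.66 to 0.68 with each other. These are relations across features, which are not independent replicates and share the depth of a library. WT libraries correlated at 0.60 to 0.63 with these 3 KO libraries. KO replicate 3 thus stood apart at equal depth too: it correlated with its own group about as WT libraries did, and less with WT. The main counts and the values in which it is far from its group are given with and without it.

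At 48 h many features with enough counts to be tested differed between the genotypes. Of 8617 tested features, 774 were higher and 730 lower in KO at an adjusted p under 0.05, which is 17.5% of those tested (edgeR quasi-likelihood test, Benjamini-Hochberg). By direction the shares were 8.98% and 8.47%. The median change was 0.85 on the log2 scale for the features that rose and -0.96 for those that fell, where the median of all tested features was 0.005. A typical called change was 1.85-fold.

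Falls outnumbered rises among the large changes. Of the 1504 called features, 231 (15.4%) changed by less than 1.5-fold, 661 by 1.5 to 2-fold, and 612 by 2-fold or more. Among the last, 274 rose and 338 fell, where 303 of all 8617 tested features were higher and 391 lower by 2-fold or more. At 4-fold or more, 13 rose and 41 fell. Large calls were frequent among scarce features. Of 5 equal bins by mean CPM, the lowest had 178 of its 185 calls at 2-fold or more, and the top bin 88 of 502. The median standard error was 0.41 in the lowest bin and 0.16 in the top bin on the log2 scale. Small changes therefore pass the test less easily among scarce features. The balance of rises and falls is relative to the TMM scaling, under which called rises slightly outnumbered called falls. With median-of-ratios size factors, 720 features rose and 794 fell.

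Leaving out KO replicate 3 changed the number of calls little. Without it, 694 features rose and 675 fell of 8891 tested, and 1278 of the 1504 calls kept their direction and their call. Of those called without it, 260 rose and 346 fell by 2-fold or more. KO replicate 1, the deepest KO library, mattered more: without it 992 features were called, 531 higher and 461 lower.

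**Figure D2:**
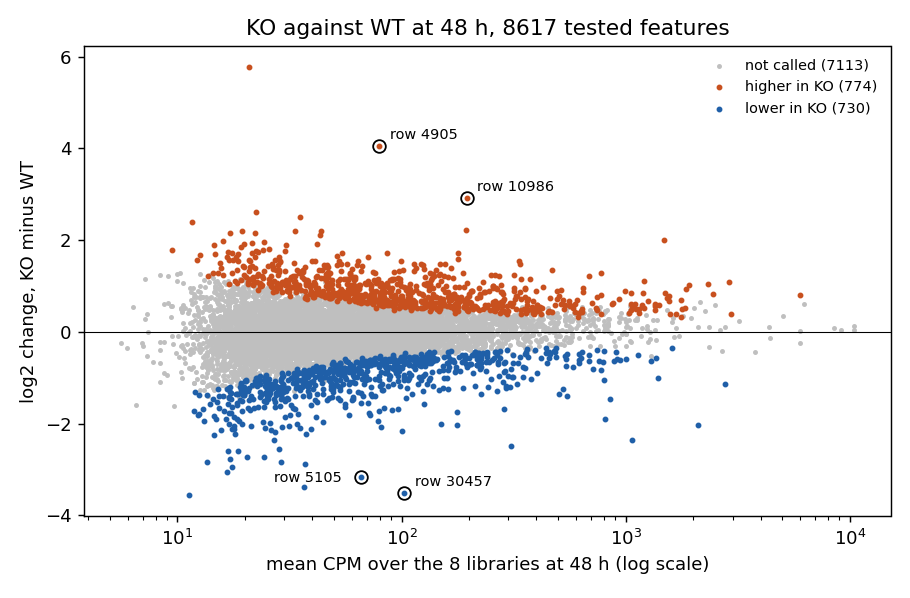
Each point is 1 of 8617 tested features, with its mean CPM over the 8 libraries at 48 h on a log axis and its log2 change, KO minus WT. The 774 features higher in KO and the 730 lower in KO are coloured, and the circles mark the 4 rows described by number.

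The share of features that passed the test grew with abundance, as did the precision. The tested features were divided into 5 bins of equal size by mean CPM. In the lowest bin (5.59 to 25.2 CPM) 10.7% were called, 70 higher and 115 lower, with a median standard error of 0.41 on the log2 scale. In the middle bin (40.3 to 66.1 CPM) the calls were even, at 136 higher and 134 lower. The top bin (123.6 to 10432 CPM) held 29.1% called features, 308 higher and 194 lower, with a median standard error of 0.16. Falls thus outnumbered rises among scarce features and rises outnumbered falls among abundant ones. The median change of all tested features moved the same way, from -0.09 in the lowest bin to 0.11 in the top bin. Without KO replicate 3 the lowest bin held 68 higher and 95 lower features and the top bin 269 and 196, with medians of -0.05 and 0.09. Mean depth was lower in KO, as given above, and its part in the trend was not tested.

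The spread of single libraries is described next; the calls were made on the same 8 libraries, so the counts add no support to them. In 709 features (8.23% of those tested) all 4 KO values lay above all 4 WT values and in 837 (9.71%) all lay below, together 17.9%. Of the 1504 called features, 1052 (69.9%) were among these, 493 higher and 559 lower. The other 452 calls had values that overlapped. In KO replicate 3, 658 of the 774 risen features lay above the WT mean and 692 of the 730 fallen features lay below it. In this library 1 count is 12.9 CPM, and a scarce feature without a count falls below the WT mean by construction. The share over all tested features was not taken. With KO replicate 3 left out, 1155 features lay wholly above and 1137 wholly below WT, where 3 libraries in place of 4 make such a separation easier by construction.

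The called sets held a sizeable part of the RNA. The features that rose took 12.8%, 12.3%, 12.03% and 12.2% of the counts of the 4 WT libraries. They took 19.5%, 19.1%, 21.5% and 19.2% in the 4 KO libraries. The features that fell took 12.5%, 12.3%, 13.1% and 13.0% in WT and 6.85%, 6.87%, 5.74% and 7.26% in KO. The sets were chosen on these libraries, so the shares describe how much RNA the calls involve and carry no test. KO replicate 3 lay at the far end in both sets.

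Very few features were present in one genotype and missing in the other. The WT libraries held 2209432 counts together and the KO libraries 1278340, so 20 counts stood for a higher level in KO. No feature without a count in WT reached 20 counts over the 4 KO libraries, and 3 features without a count in KO reached 20 counts in WT. The highest of these had 33 counts in WT. Set against a floor of 3 counts over the KO group, it was at least 6.36-fold lower in KO, a limit that covers counting error only. The highest feature without a count in WT had 16 counts in KO. Against the same floor over the WT group it was at least 9.22-fold higher in KO. The numbers 0 and 3 thus do not show a difference between the directions. Most changes at 48 h were therefore shifts in level of features found in both genotypes.

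The largest changes were sought among called features with a mean of at least 50 CPM over the 8 libraries and groups that did not overlap, of which 382 rose and 351 fell. Larger fitted changes occurred at lower levels, where single counts weigh more. The 20 largest rises ranged from 1.45 to 4.05 on the log2 scale and had means of 51.6 to 1488 CPM. The 20 largest falls ranged from -3.52 to -1.65, with means of 58.4 to 2110 CPM. All 40 had the same sign at all 6 times, as did 1138 of the 1504 called features (75.7%) and 35.8% of all tested features. Of the 135 features called at all 6 times, 10 were among these risen and 13 among these fallen ones.

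Row 4905 rose most. Its WT values were 21.2, 6.24, 6.14 and 5.83 CPM, or 9, 4, 4 and 3 counts. Its KO values were 199.7, 96.9, 129 and 173 CPM. All KO libraries stood far above all WT libraries, and WT replicate 1 was the highest of its group. The log2 change was 4.05 (SE 0.33, adjusted p = 1.13e-15, edgeR), a fold of 16.6 that rests on few WT counts. Over the course its KO mean went from 88.0 ± 17.9 CPM at 18 h to 149.5 ± 45.8 CPM at 48 h, while its WT mean went from 44.1 ± 16.8 to 9.84 ± 7.54 CPM (SD, n = 4). The genotypes were thus farther apart at 48 h than at 18 h, across a change of library number between 30 and 36 h. The row was chosen for its change at 48 h, which favours that time.

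Row 10986 had the second largest rise and the smallest p of all features. WT libraries held 49.4, 31.2, 56.8 and 40.8 CPM, and KO libraries 298, 312, 373 and 399 CPM. The lowest KO library stood several-fold above the highest WT library. The log2 change was 2.91 (SE 0.18, adjusted p = 3.02e-21, edgeR), or 7.54-fold. Its KO level at 48 h, 345.4 ± 48.4 CPM, lay inside the range of its KO means at other times, 247 to 369 CPM. Its WT level, 44.5 ± 11.0 CPM, lay below every earlier WT mean, which were 69.4 to 106 CPM (SD, n = 4). Its log2 change was the largest of the 6 times, with a low WT mean beside a KO mean within its usual range. This row too was chosen for its change at 48 h.

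Row 30457 fell most. It stood at 193, 154, 193 and 218 CPM in WT and at 8.15, 21.5, 12.9 and 23.3 CPM in KO, where it had 4, 8, 1 and 7 counts. The log2 change was -3.52 (SE 0.34, adjusted p = 8.7e-13, edgeR), or 11.5-fold lower. Its WT mean went up and down along the course, with 172.9 ± 91.5 CPM at 30 h, 80.6 ± 8.57 CPM at 36 h and 189.6 ± 26.2 CPM at 48 h (SD, n = 4). Its KO means stayed between 16.5 and 34.8 CPM. The library number changed between 30 and 36 h in both genotypes, so a step there and a change with time cannot be told apart.

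Row 5105 had the second largest fall and a WT course of like shape. At 48 h it stood at 82.3, 122, 129 and 132 CPM in WT and at 14.3, 5.38, 25.7 and 16.6 CPM in KO, the latter from 7, 2, 2 and 5 counts. The lowest WT library was still more than 3 times the highest KO library. The log2 change was -3.16 (SE 0.33, adjusted p = 1.77e-11, edgeR). Its WT mean was 140.9 ± 36.5 CPM at 30 h, 47.1 ± 21.2 CPM at 36 h and 116.3 ± 23.1 CPM at 48 h (SD, n = 4).

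**Figure D3:**
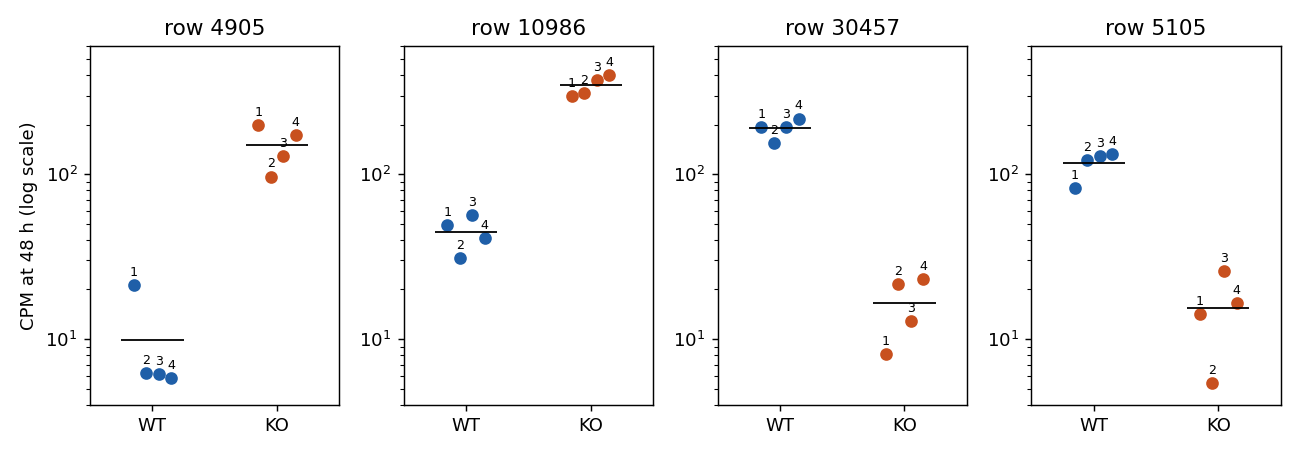
Points are the CPM values of the 4 WT and 4 KO libraries at 48 h on a log axis for rows 4905, 10986, 30457 and 5105, numbered by replicate, with group means as lines. In no panel do the groups overlap, and WT replicate 1 lies apart in row 4905 at 21.2 CPM.

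The features described next were more abundant than the numbered rows above and changed by smaller folds than those rows. The most abundant feature that fell held 3791, 3708, 3722 and 4046 CPM in WT and 1818, 1679, 1337 and 2079 CPM in KO. The lowest WT library was well above the highest KO library. The log2 change was -1.13 (SE 0.13, adjusted p = 2.23e-10, edgeR). The fall with the smallest p went from 525.9 ± 53.7 CPM in WT to 87.1 ± 27.9 CPM in KO (SD, n = 4), with WT libraries at 473 to 593 and KO libraries at 51.4 to 116 CPM. Its log2 change was -2.48 (SE 0.18, adjusted p = 1.55e-17, edgeR).

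The most abundant feature that rose depended in size on KO replicate 3. It held 4437, 4823, 4008 and 4114 CPM in WT and 6592, 6392, 11749 and 5911 CPM in KO. KO replicate 3 was far above the other KO libraries, although the groups did not overlap without it either. The log2 change was 0.80 (SE 0.14, adjusted p = 1.9e-05, edgeR) with all libraries and 0.53 (SE 0.13, adjusted p = 0.00151, edgeR) without KO replicate 3. Against a minimum change of 1.5-fold it did not pass (adjusted p = 0.274, edgeR). It was called at 48 h and at no other time.

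**Figure D4:**
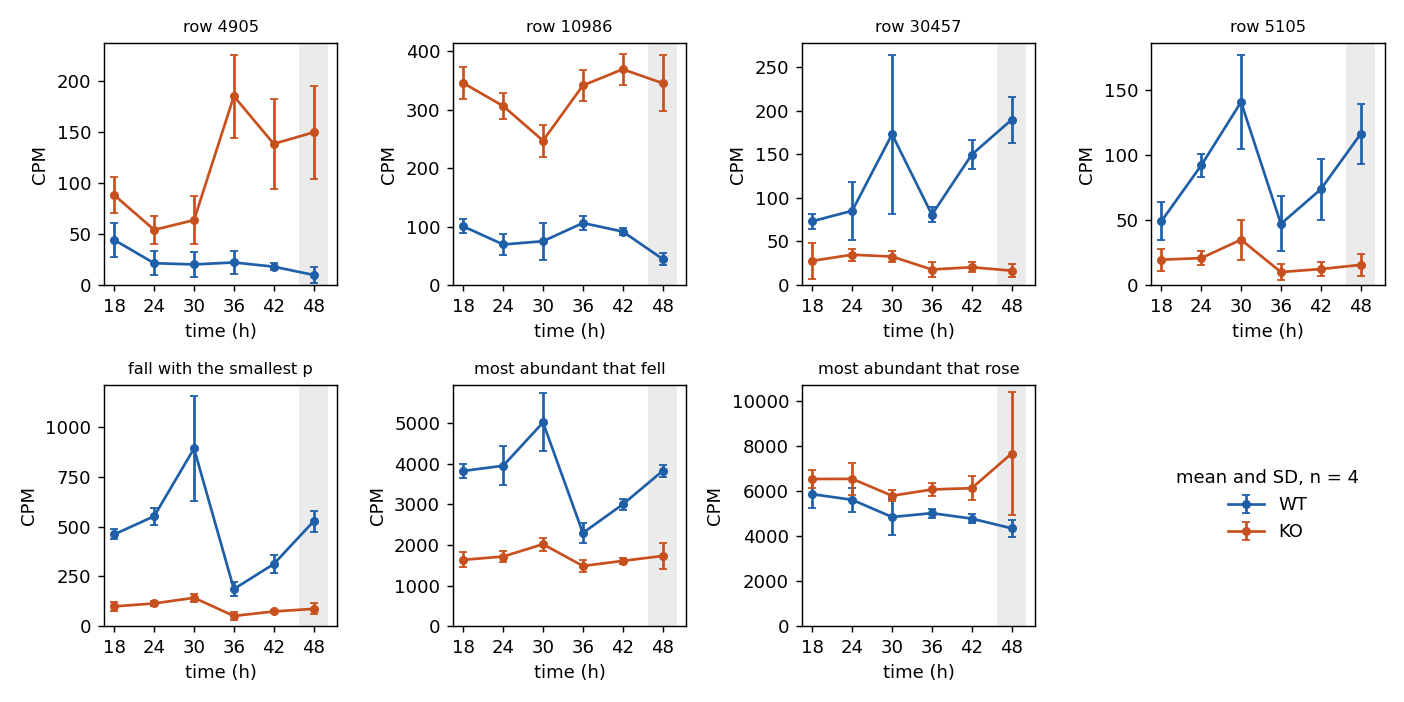
Mean CPM with SD (n = 4 libraries) against time in hours for the 4 numbered rows and 3 abundant features, WT and KO, with 48 h shaded. Row 5105, the most abundant feature that fell and the fall with the smallest p have WT means that peak at 30 h, are low at 36 h and are higher again at 48 h.

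The features called at 48 h were then read at the other times, whose libraries are separate but shared the filter, scaling and spread of the fit. At 42 h, 762 of the 774 risen features (98.4%) and 711 of the 730 fallen ones (97.4%) had the same sign, where 76.1% of all tested features did. At 18 h, 690 (89.1%) and 638 (87.4%) had the same sign, where 66.5% of all tested did. At 42 h, 465 of the risen (60.1%) and 389 of the fallen (53.3%) were also called in that direction, where KO against WT at 42 h called 16.3% of all tested features, 8.97% higher and 7.29% lower. WT libraries at 42 and 48 h share a library number, as KO libraries do, so a difference between the numbers would recur at both. Calls made from the 8 libraries at 48 h alone (16.2% of 7575 tested features) were also read in a separate fit of the other 40 libraries, an alternative added after the data were seen. At 42 h, 581 of 588 risen features (98.8%) and 619 of 629 fallen ones (98.4%) had the same sign there, where 76.9% of the 7524 features in both fits did. At 18 h these shares were 90.5%, 88.6% and 67.3%.

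Calls depend on depth and spread as well as on size, and KO against WT called 7.82% of tested features at 18 h, 10.6% at 24 h, 9.24% at 30 h and 5.52% at 36 h. Calls at all 6 times were made for 135 of the 8617 tested features. Another 483 features (32.1%) were called at 48 h and at no other time, 223 higher and 260 lower. Being called at a single time does not show a change particular to it. Of these 483, 4 differed between 48 h and the mean of the other times when that difference was tested, where 20 of all 8617 (0.232%) did. Calls of opposite sign at another time were found for 6 of the features called at 48 h. Over all tested features, called at 48 h or not, 53 at 18 h and 10 at 36 h were called against their sign at 48 h.

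Sizes were larger at 48 h than elsewhere for the features called there, a comparison that favours 48 h since the calls were made on it. The median change of the risen features was 0.43 at 18 h, 0.48 at 24 h, 0.45 at 30 h, 0.51 at 36 h, 0.61 at 42 h and 0.85 at 48 h on the log2 scale. For the fallen ones it was -0.43, -0.47, -0.48, -0.57, -0.62 and -0.96. Read the other way, the 1401 features called at 42 h had a median size of 0.81 there and 0.72 at 48 h. The 915 called at 24 h had 0.83 there and 0.63 at 48 h, and 331 of them (36.2%) were larger at 48 h. In each direction of reading, the time used for calling had the larger values.

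**Figure D5:**
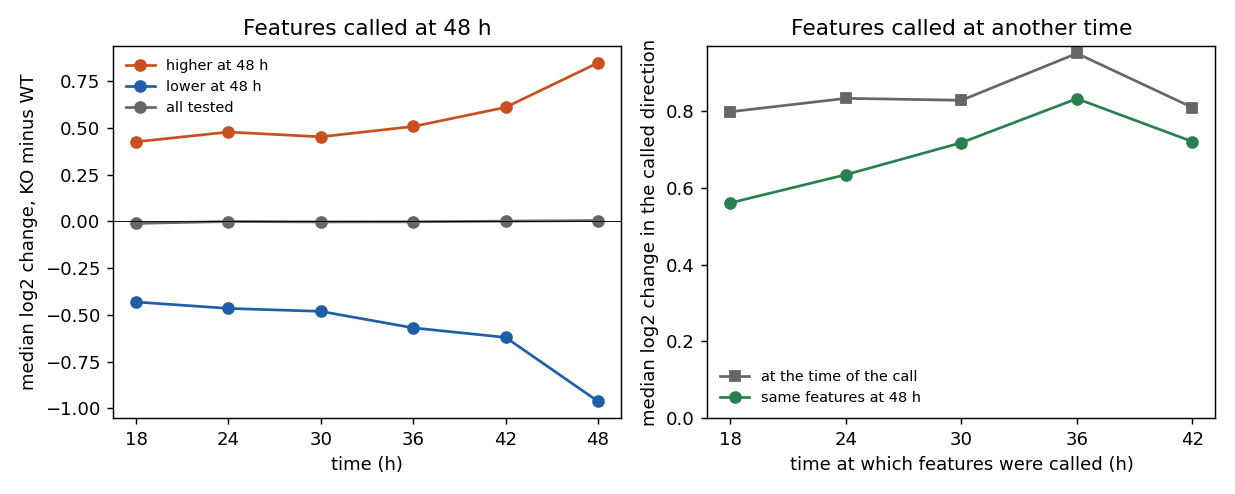
Left, the median log2 change (KO minus WT) at each time in hours of the features higher or lower at 48 h and of all tested features. Right, features called at each other time, with their median log2 change in the called direction there and at 48 h; the 48 h values lie below those at the time of the call, as at 42 h with 0.72 against 0.81.

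The difference between the KO effect at 48 h and at other times was tested directly. Against 42 h, 0 features passed (0%, edgeR), and DESeq2 and limma voom also called 0. An unadjusted p under 0.05 (edgeR) was reached by 308 of 8617 features, fewer than the 431 expected if none differed. Against 24 h, the same point of a 24-h cycle but with other library numbers, 9 features passed (0.104%), 7 with a higher (0.0812%) and 2 with a lower (0.0232%) KO effect at 48 h. Single libraries decided this number too: it was 1 without WT replicate 3, 1 without KO replicate 1, 4 without KO replicate 4 and 15 without WT replicate 2, and 8 without KO replicate 3. Against the mean of the other 5 times, 20 features passed (0.232%), 15 higher (0.174%) and 5 lower (0.0580%) (edgeR quasi-likelihood test, Benjamini-Hochberg). Here 824 features had an unadjusted p under 0.05 (edgeR), more than the 431 expected if none differed. Of these other times, 18, 24 and 30 h have other library numbers, so this difference and one between numbers cannot be told apart either. Against 42 h, where the numbers are the same, none passed, which does not show that the effects were equal. Libraries at 36 h also have the numbers of 48 h, and 48 h was not tested against 36 h alone.

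These 20 features had means of 20.5 to 362.5 CPM, and 19 of them were called at 48 h itself, where 17.5% of all tested features were. In 19 the KO change was larger at 48 h than the mean of the other times, and in 7 the mean of the other times had the opposite sign. The features were chosen on a difference that includes the change at 48 h. The choice thus favours these counts, which add no support to the difference. The positive differences ranged from 0.60 to 2.12 and the negative ones from -2.34 to -0.69 on the log2 scale. Row 4905 had the largest positive difference, 2.12 (SE 0.40, adjusted p = 0.00543, edgeR), and its difference from 24 h was 2.91 (SE 0.53, adjusted p = 0.00597, edgeR). Row 10986 differed by 1.09 (SE 0.20, adjusted p = 0.00543, edgeR). Row 30457 differed by -1.55 (SE 0.43) and did not pass (adjusted p = 0.0971, edgeR). The number passing hung on single libraries: it was 1 without KO replicate 1, 1 without KO replicate 4, 2 without WT replicate 3, 3 without WT replicate 4, 9 without KO replicate 2 and 12 without WT replicate 2. It was 23 without KO replicate 3.

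Between 42 and 48 h, single features moved in WT cells. The step called 4 features in WT (0.0464%, edgeR), 3 higher (0.0348%) and 1 lower (0.0116%) at 48 h. It called 0 in KO (0%, edgeR, with DESeq2 and limma voom also at 0). An unadjusted p under 0.05 (edgeR) was reached by 557 features in WT and 361 in KO, where 431 would be expected if none differed. All 4 WT features were called between KO and WT at 48 h, a comparison that shares the WT libraries at 48 h with the step. The number was 2 without WT replicate 2 and 1 without WT replicate 4.

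The clearest of these rose in WT from 821, 738, 1005 and 1011 CPM at 42 h to 1706, 2241, 1548 and 1485 CPM at 48 h. Every WT library at 48 h lay above every one at 42 h. The log2 step was 0.96 (SE 0.16, adjusted p = 0.00105, edgeR). In KO it held 338, 333, 302 and 263 CPM at 42 h and 322, 296, 707 and 236 CPM at 48 h, with KO replicate 3 the highest. The KO step was 0.14 (SE 0.20) and did not pass (adjusted p = 0.9997, edgeR). At 48 h its KO change was -2.36 (SE 0.19, adjusted p = 4.26e-16, edgeR). Without KO replicate 3 the KO step was -0.11 (SE 0.18), which did not pass either, and the change at 48 h was -2.61 (SE 0.18, adjusted p = 2.38e-19, edgeR).

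The others were row 10986, the fall with the smallest p, and a scarcer feature. Row 10986 fell in WT from 98.5, 95.6, 86.0 and 85.8 CPM at 42 h to the 48 h values above, a step of -1.02 (SE 0.20, adjusted p = 0.00631, edgeR). The fall with the smallest p rose in WT from 311.7 ± 43.5 to 525.9 ± 53.7 CPM (SD, n = 4), a step of 0.74 (SE 0.14, adjusted p = 0.00631, edgeR). The scarcer feature rose in WT from 25.4 to 30.1 CPM at 42 h to 44.7 to 87.5 CPM at 48 h, a step of 1.34 (SE 0.28, adjusted p = 0.0256, edgeR), and held 0 to 8.07 CPM in KO at 48 h. None of the KO steps of these features passed. A larger step in WT than in KO was not shown for any of the 4: the tests of that difference gave unadjusted p of 4.64e-04 for row 10986, 0.00198 for the clearest riser, 0.16 for the fall with the smallest p and 0.207 for the scarcer feature, and adjusted p of 0.832 or more (edgeR). Without KO replicate 3 the clearest riser had an unadjusted p of 1.85e-05 and an adjusted p of 0.165 (edgeR).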

How the data were processed

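Whole-number counts per feature were deposited by the authors in 1 table. The alignments behind them had been sorted and deduplicated, per the file headers. STAR 2.5.4b and the mm10 (GRCm38) build are named, per the submitters' processing notes. The counting tool, annotation, strand setting and use of molecular identifiers are not given in the sources used here. Columns were matched by library name, and 132 columns that match no sample were not used.

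Features were filtered with filterByExpr (minimum count 10, minimum total 15), which kept 8617 (26.6%) holding 97.2% of the counts at 48 h, and scaled with TMM. edgeR 4.0.16 (R 4.3.3) quasi-likelihood tests used all 48 libraries, 1 mean per group of genotype and time, without a replicate block. P-values were adjusted over all tested features, with calls at 0.05. Alternatives included DESeq2 1.42.0 and limma 3.58.1. The fits were tested on simulated data. CPM are TMM-scaled counts. Library measures used exact two-sided permutation tests (70 splits). No replicate pair at 48 h agreed within counting noise (12 pairs, chi-square per degree of freedom 1.25 to 4.06), so none was treated as 1 library deposited in duplicate.

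Described features followed a rule: called at 48 h, mean of at least 50 CPM and groups apart, the 2 largest changes in each direction by row. Without row numbers it took the most abundant call, the smallest p and the largest difference from other times in each direction. The clock and hepatocyte genes it also lists could not be looked up. The features of the WT step between 42 and 48 h were added after their values were seen. The comparison, the rule and the tests were chosen with earlier results of these data known.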

Additional observations from a re-analysis of the deposited data

Results flagged for a closer look

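Of 36 groups of 4 values that were examined, 3 had a single value set apart from the rest; chance alone gives about 1 in 20, or 1.8. For row 4905 this was WT 48 h replicate 1, with 21.2 CPM (9 counts), when the other WT libraries had 5.83 to 6.24 CPM. For the most abundant feature that rose it was KO 48 h replicate 3, the shallowest of the 8 libraries, with 11749 CPM beside 5911 to 6592 CPM. For the fall with the smallest p it was KO 42 h replicate 2, with 60.8 CPM beside 77.6 to 79.3 CPM.

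Some results differed between 48 h and other times by a test of the difference itself. The KO effect of row 4905 exceeded the mean of the other 5 times by 2.12 and that at 24 h by 2.91 on the log2 scale. That of row 10986 exceeded the mean of the other times by 1.09. In all, 20 features differed from the mean of the other times and 9 from 24 h. The libraries at 18, 24 and 30 h have other numbers than those at 48 h, so both differences and one between library numbers cannot be told apart. Against 42 h, with the same numbers, 0 features passed, which does not show equal effects. The difference from 42 h was 1.06 (SE 0.51) for row 4905 and 0.90 (SE 0.24) for row 10986. Against the mean of the other times the SE were 0.40 and 0.20.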

How the results depend on the processing

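The 7 features described by the rule kept their direction under all 24 alternatives. They kept their call too, except the most abundant that rose. It did not pass a minimum change of 1.5-fold (0.80, adjusted p = 0.274, edgeR). The clearest riser and the scarcer feature of the WT step were not read under these alternatives, apart from leaving out KO replicate 3. Of the counts and library measures, 131 values stayed within 1.5 times or kept their call, and 45 moved. The library measures kept their sign, and none passed after adjustment under any alternative. With so few libraries a single measure could not pass after adjustment, so this lack of a call decides nothing. Features higher and lower at 48 h (774 and 730) were 475 and 475 with only the 8 libraries and a replicate block, 170 and 178 after thinning to 87163 counts (3590 features tested), 128 and 136 when tested for more than 1.5-fold, and 465 and 399 at an adjusted p under 0.01. Leaving out 1 library or number gave 453 to 694 and 403 to 679. The 9 features differing from 24 h were 20 with DESeq2, 36 with no filter, 18 with the replicate block, 20 without libraries under 100000 counts and 3 after thinning. The 20 differing from the mean of the other times were 11 with the block, 42 without those libraries and 0 after thinning. The WT step (4) had 9 calls with no filter, 14 without those libraries and 1 after thinning; the 0 differing from 42 h became 1 without those libraries. Leave-outs gave 0 to 29, 0 to 25 and 0 to 5 for these in turn, and 0 for the difference from 42 h. The cause was not tested, beyond fewer counts or samples.

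Replicate numbers did not pair the 48 h libraries: deviations of same-numbered WT and KO libraries correlated at -0.07 to 0.16, and 2 of 8 correlated best with their own number. The replicate block over all libraries gave 712 higher and 631 lower. It was not run for steps within a genotype, which lie between pairs. Depth limits the scarce features most, since 1 count in KO replicate 3 is 12.9 CPM.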
